A study of Homo sapiens with 8 samples.

Results

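The glutathione transferases examined here were 9 promoter windows among the 19957 in a table of read counts from RPE1 cells, a telomerase-immortalised human line derived from retinal pigment epithelium. They comprised 4 genes of the alpha class on chromosome 6 (GSTA1, GSTA2, GSTA3 and GSTA4), GSTP1 of the pi class, GSTM3 of the mu class, GSTO1 of the omega class, the mitochondrial and peroxisomal kappa-class gene GSTK1, and the microsomal gene MGST1. DNA was profiled by OGAP-seq, in which fragments bearing oxidative base damage are pulled down before sequencing, and input DNA was sequenced without the pull-down. There were 4 groups of 2 libraries, namely OGAP and input from wild-type cells without doxycycline (WT), and OGAP and input from doxycycline-treated cells in which the nuclear and spindle-pole protein NuMA, also labelled TDIF, was knocked down (KD). All groups were of the same cell line and differed only in doxycycline with knockdown, which cannot be told apart, and in the pull-down. The labels do not say whether a group's libraries came from separate cultures, so p-values measure only the spread between libraries, possibly a technical one. The counts are of DNA, so neither the expression of these genes nor the identity of the cells can be read from them.

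The set was chosen with OGAP over input of these same libraries known, in which GSTA4 was high, and the other genes are its relatives. OGAP over input is therefore given for these 9 genes as a description, with no p-value, and they are tested only in the comparisons of KD with WT. Other genes are tested in OGAP over input as well, in lists that were also chosen with earlier results of these data known. Of the 9 windows, 7 were centred within 500 bp of the RefSeq start of the named gene on the same strand. The GSTO1 and GSTK1 windows were assigned by Ensembl identifier (ENSG00000148834 and ENSG00000197448), which no table used here pairs with a symbol. Their centres lie 18818 and 19349 bp upstream of the RefSeq starts, so their values do not describe the RefSeq promoters.

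Glutathione transferases join glutathione to electrophilic compounds, which makes these compounds more soluble and readies them for export. The alpha, mu, pi and omega classes are cytosolic, and MGST1 sits in membranes and also has peroxidase activity. GSTA4 is known for its high activity toward 4-hydroxynonenal, an aldehyde formed when membrane lipids are oxidised, whereas GSTA1 and GSTA2 are best known from the liver and GSTA3 for a step in steroid hormone synthesis. GSTP1 is widely expressed, and many genes of the family are targets of the stress-responsive transcription factor NRF2, which binds antioxidant response elements.

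Sequences are shown first for the alpha class. GSTA1 and GSTA2 are near copies of each other, and GSTA4, like GSTA3 (not shown), differs from both. All sequences of this class are the bases just before the RefSeq start (GRCh38.p14), 5′ to 3′ on the minus strand of chromosome 6. In GSTA1 (chr6:52803817-52804066) and GSTA2 (chr6:52763476-52763725) the capitals mark the 7 of 250 positions at which the pair differ.
GSTA1: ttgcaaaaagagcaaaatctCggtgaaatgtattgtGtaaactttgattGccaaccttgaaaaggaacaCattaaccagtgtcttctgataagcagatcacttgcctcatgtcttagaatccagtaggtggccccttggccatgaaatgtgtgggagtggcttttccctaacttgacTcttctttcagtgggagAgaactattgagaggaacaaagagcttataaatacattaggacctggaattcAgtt
GSTA2: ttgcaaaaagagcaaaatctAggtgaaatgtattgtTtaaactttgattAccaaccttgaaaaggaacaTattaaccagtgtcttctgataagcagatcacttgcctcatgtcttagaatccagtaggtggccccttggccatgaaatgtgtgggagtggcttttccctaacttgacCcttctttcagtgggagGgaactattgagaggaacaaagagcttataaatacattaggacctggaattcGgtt

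In GSTA4 (chr6:52995285-52995534) and in GSTP1 (chr11:67583562-67583811, plus strand), the GC-rich member of the set, the capitals mark CpG dinucleotides.
GSTA4: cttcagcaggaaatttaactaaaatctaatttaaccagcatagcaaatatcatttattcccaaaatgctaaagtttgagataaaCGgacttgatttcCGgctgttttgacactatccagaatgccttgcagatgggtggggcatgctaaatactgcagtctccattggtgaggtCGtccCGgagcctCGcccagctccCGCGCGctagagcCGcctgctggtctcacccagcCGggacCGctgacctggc
GSTP1: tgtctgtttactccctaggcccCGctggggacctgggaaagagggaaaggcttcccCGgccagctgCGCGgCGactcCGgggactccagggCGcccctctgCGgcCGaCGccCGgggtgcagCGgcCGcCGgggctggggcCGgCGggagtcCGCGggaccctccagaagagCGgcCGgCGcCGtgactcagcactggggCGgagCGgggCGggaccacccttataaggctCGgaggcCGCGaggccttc

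Over the 300 bases of the RefSeq promoter, which add the first 50 bases of the gene, GSTA1 and GSTA2 were 96.0% identical in a global alignment. The other 5 alpha-class pairs were 46.3% to 51.8% identical. Reads from GSTA1 and GSTA2 could therefore be hard to assign to either copy, and how the authors treated reads with several matches is not given in the sources used here. GSTA4 had 14 CpG in the 300 bases, which equals the median of 35116 RefSeq promoters, against 4 in GSTA1, 1 in GSTA2 and 2 in GSTA3. Its GC content was 53.0%, against 41.3%, 40.0% and 45.7% in the same order and a median of 58.7% over all promoters. GSTP1 had 36 CpG and 74.0% GC. GSTM3 (41.3% GC) and MGST1 (39.7%) lay near GSTA1 and GSTA2.

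The promoters were searched on both strands for the antioxidant response element core TGACNNNGC, the AP-1 motif TGANTCA and the TATA box TATAAA. TGACNNNGC can contain the first letters of TGANTCA, so the motifs can overlap. The antioxidant core was found in GSTA4 from 9 bases before the start, in GSTP1 from 66 bases before it, where TGACTCAGC also holds the AP-1 motif, and in MGST1 within the first bases of the gene. It was not found in GSTA1, GSTA2, GSTA3 or GSTM3, and 13.3% of all RefSeq promoters hold it. TATAAA stood 30 bases before the start in GSTA1 and GSTA2 and 197 bases before it in MGST1, and was present in 11.5% of all promoters. The RefSeq promoters of GSTO1 and GSTK1 lie outside their counted windows. That of GSTO1 holds the antioxidant core at 2 places and TATAAA at 1, and that of GSTK1 holds neither. These are matches of letters, not measured binding sites.

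GSTA4 stood apart in the pull-down. Its window (ENSG00000170899, on the minus strand of hg38 chromosome 6 from 52994379 to 52996379) had 57 and 94 reads in the WT pull-down. The deeper WT inputs gave it 39 and 29. After KD the pull-down gave 77 and 127 reads and the inputs 29 and 44. As CPM, counts scaled by TMM to the promoter reads of each library, the means were 205 ± 61.1 (SD, n = 2) for WT OGAP, 45.3 ± 10.8 for its input, 213 ± 105 for KD OGAP and 54.4 ± 17.9 for its input. In both states each OGAP library lay above both inputs.

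**Figure D1:**
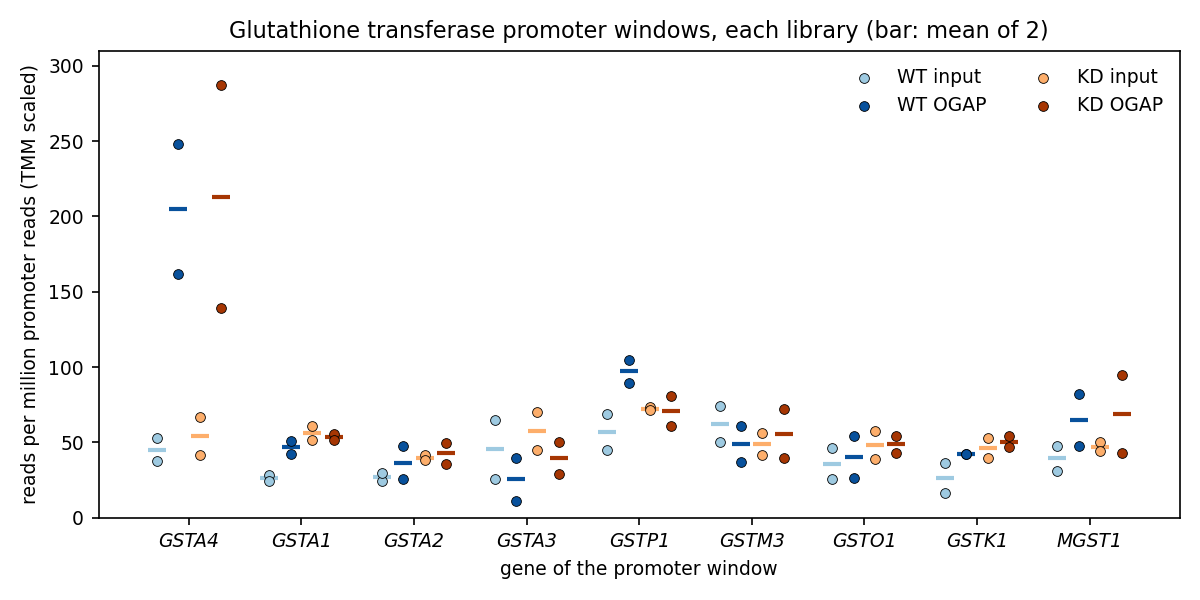
CPM (counts scaled by TMM to the promoter reads of the library, y axis) in each of the 8 libraries for the 9 glutathione transferase windows (x axis), with a bar at the mean of the 2 libraries of a group. The 4 OGAP points of GSTA4 lie between 139 and 287, above every other point in the plot, while its inputs lie among those of the other genes.

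By rank, the GSTA4 window passed 99.0% and 99.9% of the 17130 tested windows in the WT OGAP libraries, and 99.7% and 99.9% in KD OGAP. In the inputs it passed 45.7% and 23.5% in WT, and 25.5% and 71.7% in KD. The window was thus near the top of the pull-down and in the broad middle of the input. Within each pull-down pair the second library was the higher one, and the KD pair spread more widely (139 and 287 CPM) than the WT pair (162 and 248 CPM).

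The log2 difference between OGAP and input for GSTA4 was 2.18 ± 0.31 (SE) in WT and 1.95 ± 0.30 in KD, or 4.54-fold and 3.87-fold. This placed it 149th from the highest of 17130 windows in WT and 48th in KD. The KD value depends on the second KD OGAP library, without which it was 1.35. Far fewer windows of the whole table passed the edgeR threshold without that library, and GSTA4 was not among them. In WT, leaving out any of the 8 libraries gave 1.84 to 2.44.

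The other alpha-class genes did not share this level. GSTA1 (ENSG00000243955, 52802911 to 52804911 on the same strand) had 18 and 16 reads in the WT pull-down and 21 and 19 in its inputs. After KD it had 31 and 23 reads in the pull-down and 36 and 40 in the inputs. Its log2 OGAP over input was 0.81 ± 0.44 in WT and -0.06 ± 0.38 in KD. In WT both OGAP libraries lay above both inputs in CPM (46.7 ± 6.26 against 26.6 ± 2.71), and in KD they overlapped.

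GSTA2 (ENSG00000244067, 52762570 to 52764570, minus strand), the near copy, had 9 and 18 reads in the WT pull-down and 18 and 23 in the inputs, then 20 and 22 against 29 and 25 after KD. OGAP and input overlapped in both states, at log2 differences of 0.44 ± 0.49 and 0.09 ± 0.44. GSTA3 (ENSG00000174156, 52908686 to 52910686, minus strand) was the least even window of the set, with 4 and 15 pull-down reads against 48 and 20 input reads in WT, and 28 and 13 against 31 and 46 after KD. Its log2 differences were negative, at -0.80 ± 0.49 in WT and -0.49 ± 0.42 in KD, and the libraries overlapped in both. The WT value of GSTA3 was -1.98 without the second WT OGAP library, -0.20 without the first, and -0.02 and -1.33 without the first or the second WT input library.

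Dividing counts within a library avoids any scaling between libraries. GSTA4 had 1.84 and 1.92 times the summed reads of GSTA1, GSTA2 and GSTA3 in WT OGAP, and 0.448 and 0.468 times in the WT inputs. After KD it was 0.975 and 2.19 in the pull-down against 0.302 and 0.396 in the inputs. All 4 pull-down ratios lay above all 4 input ratios, and the first KD OGAP library was the lowest of the pull-downs. GSTA4 was chosen as high in OGAP over input of these same libraries, so this separation restates the choice and is a description only.

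Of the reads of all 9 windows, GSTA4 took 28.4% (exact 95% binomial interval 22.2% to 35.1%, counting error only) and 38.5% (32.4% to 44.9%) in WT OGAP. In WT input it took 14.7% (10.7% to 19.6%) and 10.1% (6.9% to 14.2%). In KD it took 25.9% and 38.0% in OGAP against 9.54% and 13.3% in input. GSTA4 was chosen on OGAP over input, so the intervals are no test of it, and replicates differed by more than counting error. The 3 other alpha-class genes together had 0.38 ± 0.149 times the reads of the 5 genes of other classes in WT OGAP and 0.472 ± 0.218 times in WT input, a difference smaller than the spread between libraries.

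**Figure D2:**
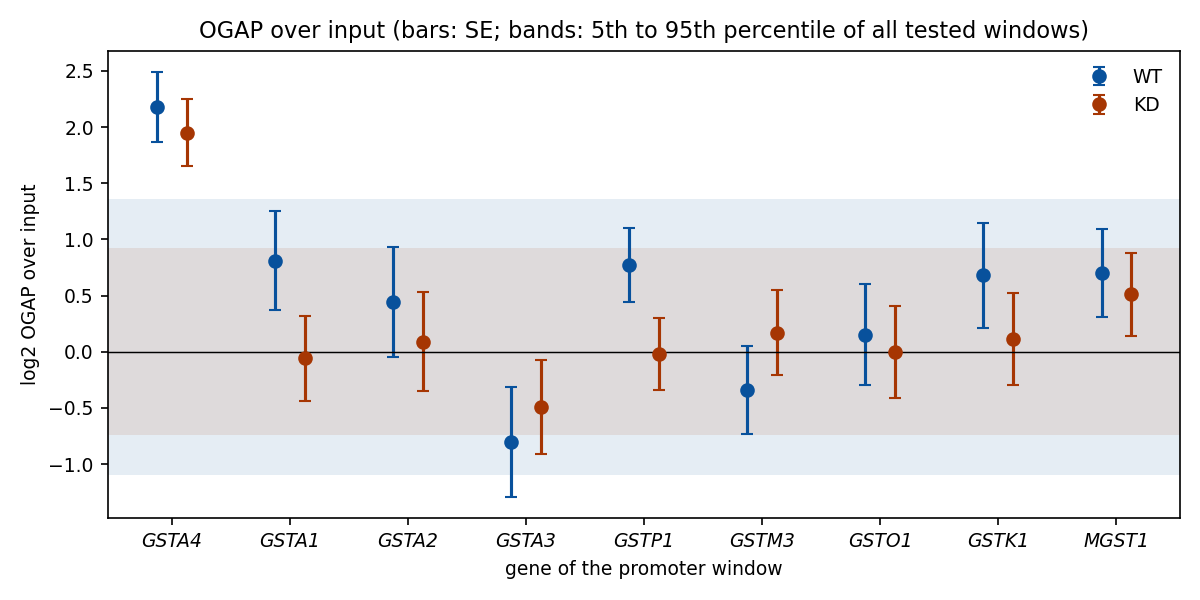
Log2 OGAP over input (y axis) with its SE for each glutathione transferase window (x axis) in WT and KD, over bands from the 5th to the 95th percentile of all 17130 tested windows in each state. GSTA4 lies above both bands at 2.18 and 1.95, and the other 8 genes lie inside them.

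Of the other classes, GSTP1 (ENSG00000084207, chromosome 11, 67582594 to 67584594, plus strand) had the highest level after GSTA4 in the WT pull-down. Pull-down reads were 37 and 34 against 33 and 53 input reads in WT, and 45 and 27 against 51 and 47 after KD. In CPM this was 97.5 ± 10.8 in WT OGAP and 56.8 ± 17 in WT input, without overlap, and 71.0 ± 14.2 and 72.5 ± 1.32 in KD, with overlap. The log2 difference was 0.77 ± 0.33 in WT and -0.02 ± 0.32 in KD.

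MGST1 (ENSG00000008394, chromosome 12, 16346141 to 16348141, plus strand) had 29 and 18 pull-down reads against 23 and 37 input reads in WT, and 24 and 42 against 35 and 29 after KD, at log2 differences of 0.70 ± 0.39 and 0.51 ± 0.37. GSTM3 (ENSG00000134202, chromosome 1, 109740039 to 109742039, minus strand) had 13 and 23 against 37 and 57, and 22 and 32 against 29 and 37, in the same order, at -0.34 ± 0.39 and 0.17 ± 0.38. OGAP and input libraries of both genes overlapped in both states.

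The GSTO1 window (chromosome 10, 104234355 to 104236355, plus strand) had 19 and 10 pull-down reads against 34 and 20 input reads in WT, and 24 and 24 against 27 and 38 after KD, at log2 differences of 0.15 ± 0.45 and 0.00 ± 0.41. The GSTK1 window (chromosome 7, 143243092 to 143245092, plus strand) had 15 and 16 against 12 and 28, and 26 and 24 against 37 and 26, in that order, at 0.68 ± 0.47 and 0.11 ± 0.41. In WT both GSTK1 OGAP libraries lay above both inputs in CPM, and GSTO1 overlapped throughout.

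Over the set, 7 of 9 windows were above 0 in WT and 6 of 9 in KD, with medians of 0.68 and 0.09, against 48.7% and 52.5% of all tested windows and medians of -0.02 and 0.03. GSTO1, counted as above 0 in KD at 0.00, lay below 0 under each of 5 other scalings or fits. Leaving out a library also turned GSTA2 and GSTO1 below 0 in WT, and in KD GSTA2, GSTK1, GSTM3 and MGST1. All 9 members were kept by the filter on low counts. GSTA4 alone lay past the edgeR threshold (adjusted p of 0.05) in each state, where 13.7% of all windows did so in WT (9.25% higher, 4.45% lower) and 0.736% in KD (0.63% higher, 0.105% lower). GSTA4 was chosen on these contrasts, so the count is a description only. In KD the GSTA4 call was lost without the second KD OGAP library, where calls over all windows also fell. In WT, 4 of the 9 (GSTA4, GSTA1, GSTP1 and GSTK1) had both OGAP libraries above both inputs and 0 below, against 28.5% and 28.0% of all windows. In KD this was 1 (GSTA4) and 0, against 24.3% and 19.6%.

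The neighbourhood of GSTA4 was examined to see whether its level extended along the chromosome. Of the named windows on the side of the alpha cluster, GSTA3 lay 85.7 kb away at -0.80 ± 0.49 in WT. GSTA5, a further alpha-class gene, lay 149.3 kb away at -0.74 ± 0.49, and GSTA1 191.5 kb away at 0.81 ± 0.44. On the other side CILK1, a ciliary kinase gene, lay 66.4 kb away at 0.22 ± 0.43, GCM1, a placental transcription factor gene, 153.5 kb away at 1.22 ± 0.39, and ELOVL5, a fatty acid elongase gene, 353.8 kb away at 0.07 ± 0.35.

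In KD these 6 windows lay between -0.83 and 0.34. Over all 20 other tested windows within 1 Mb of GSTA4 the log2 difference ran from -1.14 to 1.45 in WT, with a median of 0.19, and from -1.47 to 0.70 in KD, with a median of 0.09. The highest in WT was an unnamed window (ENSG00000112146), 56.6 kb from GSTA4 and the nearest to it. Its WT value of 1.45 lay above the 95th percentile of all windows (1.36), and in KD it was at 0.23 ± 0.38. No other window in this stretch reached the GSTA4 value in either state. GSTA4 was chosen as high, and 99.1% of all windows in WT and 99.7% in KD lay below it, so few windows anywhere reach it. The absence of others here therefore says little on whether its level extended along the chromosome. No window overlaps that of GSTA4 or of any other member.

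**Figure D3:**
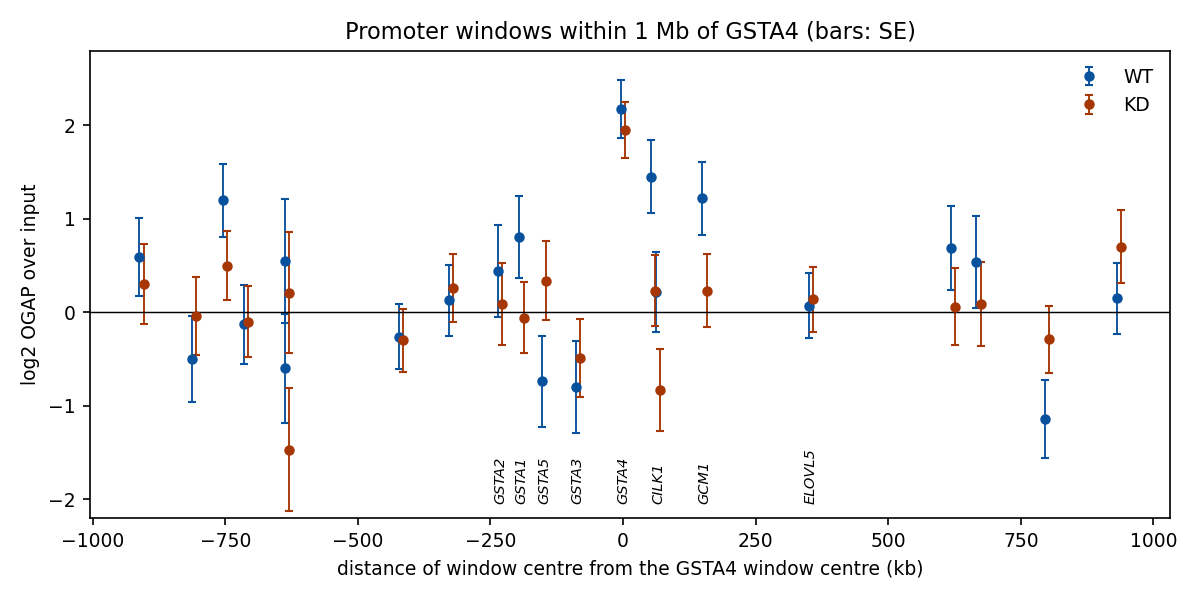
Log2 OGAP over input (y axis) with its SE in WT and KD for the tested promoter windows within 1 Mb of GSTA4, placed by the distance of their centres from that of GSTA4 (x axis, kb); genes named in the text are labelled. GSTA4 at 0 kb is the highest window in both states, and GSTA3, its nearest alpha-class relative, lies below 0.

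Regional levels were taken as medians over the non-overlapping windows within 5 Mb of each member. Around GSTA4 the regional input level was 0.678 times that of all windows, and the regional log2 OGAP over input was 0.27 in WT and 0.14 in KD over 46 windows. Around GSTO1 the input level was 1.66 times that of all windows, the highest of the 9 regions; RPE1 cells are known to carry an extra copy of this part of chromosome 10. The GSTO1 window itself did not share that level, with 36.0 ± 14.3 CPM in WT input against a regional median of 94.3. The region around MGST1 was at 0.779 times and that around GSTP1 at 1.24 times the level of all windows.

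Across the table, OGAP over input was lower where the promoter was richer in GC, and the members were set beside this. In 9929 named windows split into 5 bins by GC, the median WT log2 difference went from 0.28 in the lowest bin to -0.48 in the highest, and in KD from 0.20 to -0.20. GSTA4, at 53.0% GC, fell in the second bin (51.3% to 60.0%), where the median was 0.10 in both states and the 95th percentile 1.27 in WT and 0.86 in KD. GSTP1, at 74.0% GC, fell in the highest bin, and its WT value of 0.77 lay above the 95th percentile there (0.56), whereas its KD value of -0.02 lay below it (0.46). Leaving out a library gave 0.49 to 1.11 for GSTP1 in WT, lowest without the first WT input library. GSTA1, GSTA2, GSTA3, GSTM3 and MGST1 fell in the lowest bin and below its 95th percentile in both states (1.44 and 0.99). The part of GC content in these values was not tested.

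**Figure D4:**
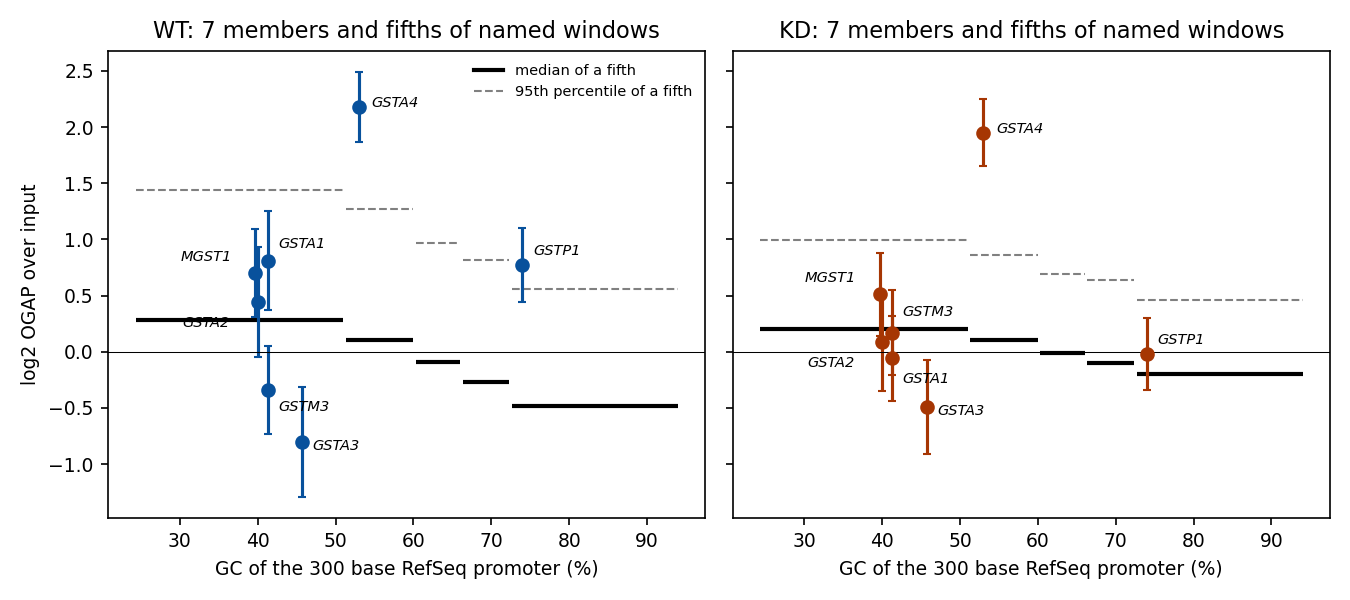
Log2 OGAP over input (y axis) with its SE for the 7 members whose 300 base RefSeq promoter lies in the counted window, against the GC content of that promoter (x axis, %), in WT (left) and KD (right). Thick lines are medians and dashed lines 95th percentiles of 5 GC bins of 9929 named windows; GSTA4 lies above the dashed line in both states and GSTP1 only in WT.

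KD against WT in OGAP asked whether the share of each promoter in the pull-down differed after NuMA depletion. None of the 9 windows passed the threshold in edgeR or in DESeq2, where 0.035% of all windows passed in edgeR, 0.0175% in each direction. Unadjusted p was under 0.05 for 0 of the 9 and for 10.6% of all windows. GSTA4 was nearly level, at a log2 change of 0.03 ± 0.28 (95% interval -0.52 to 0.58, edgeR adjusted p = 0.979). The libraries of both states also served in the comparisons that chose GSTA4, so this value is not independent of the choice. GSTA4 turned negative without the second KD OGAP library (-0.57) and without the first WT OGAP library (-0.24).

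Furthest from 0 in the pull-down were GSTA3, at 0.64 ± 0.52 (edgeR adjusted p = 0.693), and GSTP1, at -0.44 ± 0.34 (adjusted p = 0.673). The GSTA3 value was 0.04 without the first WT OGAP library, 1.82 without the second, and 0.18 without the first KD OGAP library. Both KD OGAP libraries of GSTP1 lay below both of WT (81.1 and 60.9 against 105 and 89.8 CPM). GSTA1 and GSTK1 were above without overlap, at 0.21 ± 0.42 and 0.24 ± 0.45. GSTA2 (0.21), GSTO1 (0.28), GSTM3 (0.16) and MGST1 (0.07) overlapped between states. Over all windows 19.6% lay above and 19.9% below without overlap. In all, 8 of 9 changes were positive with a median of 0.21, against 50.8% and 0.01 over all windows.

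KD against WT in input gave the same comparison in DNA without the pull-down. No member passed in edgeR or DESeq2, nor did any window in the table (0%), and 1 of the 9, GSTA1, had an unadjusted p under 0.05, as did 4.41% of all windows. GSTA1 input was at 28.5 and 24.6 CPM in WT and at 51.9 and 60.9 in KD, without overlap, at a log2 change of 1.08 ± 0.40 (unadjusted p = 0.00754, edgeR adjusted p = 0.999). This change did not pass the test, and 99.3% of all windows had a lower value. Its near copy GSTA2 was also above without overlap, at 0.55 ± 0.44, as were GSTK1 at 0.81 ± 0.42 and GSTP1 at 0.35 ± 0.32 (edgeR adjusted p = 0.999 each). Leaving out a library gave 0.35 to 1.5 for GSTK1. GSTA4 input overlapped between states, at 0.26 ± 0.34. GSTM3 was the only member below 0, at -0.34 ± 0.35. Over the set 8 of 9 were positive with a median of 0.35, against 48.9% and -0.01 over all windows, and 4 of 9 were above without overlap, against 17.3%.

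**Figure D5:**
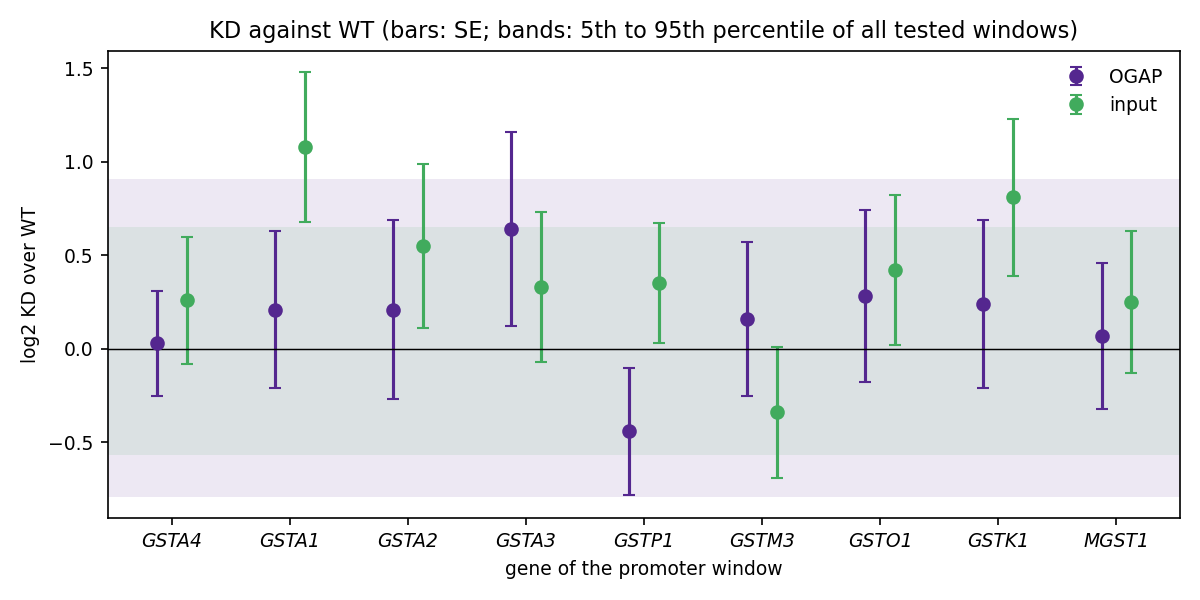
Log2 change between KD and WT (y axis) with its SE for each glutathione transferase window (x axis), in OGAP and in input, over bands from the 5th to the 95th percentile of all tested windows. GSTA4 lies near 0 in OGAP (0.03), and GSTA1 (1.08) and GSTK1 (0.81) lie above the band in input.

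The effect of KD on OGAP over input, which takes the input change out of the pull-down change, was tested as an interaction. None of the 9 windows passed in edgeR or DESeq2, where 0.00584% of all windows passed in edgeR. Unadjusted p was under 0.05 for 0 of the 9 and for 8.14% of all windows. For GSTA4 the effect was -0.23 ± 0.43 (edgeR adjusted p = 0.923), with a 95% interval from -1.09 to 0.63. The same libraries served in the choice of GSTA4, so neither this value nor its input change is independent of that choice. GSTA1 was at -0.87 ± 0.58 (adjusted p = 0.726), GSTP1 at -0.79 ± 0.46 (adjusted p = 0.669), and GSTK1 at -0.57 ± 0.62. GSTM3 at 0.50 ± 0.54 and GSTA3 at 0.31 ± 0.65 were the members above 0. The median was -0.23, against 0.02 over all windows.

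Other genes of glutathione chemistry were taken from 3 lists that share no gene with the members and were tested over the whole table. The lists were chosen with earlier results of these data known, so counts of calls within them are a description. Of 16 other glutathione transferase genes, 12 were tested in WT OGAP over input. MGST2, a microsomal member that also makes leukotriene C4, rose by 1.03 ± 0.37 (edgeR adjusted p = 0.0471) and 0 fell, with a median of -0.41 and 3 of 12 above 0. Over all windows 9.25% were called higher and 4.45% lower, so the count of 1 in 12 is near the share in the whole table. The call of MGST2 was lost with DESeq2 (adjusted p = 0.205) and without any of 5 libraries, namely both WT OGAP libraries, the second WT input and both KD inputs (0.64 to 1.18).

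Of 37 genes of glutathione synthesis, recycling and peroxide reduction, 30 were tested, with a median of 0.04 in WT. GGT6, of the gamma-glutamyltransferase family, rose by 0.96 ± 0.31 and GLRX3, a glutaredoxin with a role in iron handling, fell by 1.10 on the log2 scale (± 0.34). A count of 1 of 30 in each direction is no higher than the 9.25% and 4.45% over all windows. Neither passed with DESeq2 (adjusted p = 0.138 and 0.114), without the second WT OGAP library or without the second WT input library. GGT6 was also lost without the first WT input library, and GLRX3 without the first WT OGAP library. The list had 0 calls with DESeq2, where calls over all windows fell from 2346 to 884. Without the second WT input library calls also fell, both in the list and over all windows. GPX4, which reduces lipid hydroperoxides in membranes, was at 0.06 ± 0.30. Genes of the lists were matched to windows by position only. GCLC and NFE2L2 matched none, so no value is given under these names, though a window left unnamed may be theirs.

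Of 20 genes that clear lipid aldehydes or related carbonyl compounds, 16 were tested in WT. Of these 5 rose and 0 fell, with a median of 0.31, and over all windows 9.25% were called higher. This count is a description and no test of the list, which was chosen with earlier results known. ALDH7A1 (1.57 ± 0.33, edgeR adjusted p = 0.000407) and ALDH9A1 (1.53 ± 0.33, adjusted p = 0.000602), both aldehyde dehydrogenases, kept their calls in every alternative. The aldo-keto reductase gene AKR1B10 (1.32 ± 0.32) lost its call without the first WT OGAP library or the second WT input library, and the glyoxalase gene GLO1 (1.13 ± 0.36) with DESeq2 and without the second WT OGAP library or either WT input library. HAGH, the partner of GLO1, had a value of 3.93 ± 0.88 that rests on 13 and 19 reads against 4 and 0 in a window that overlaps another, and it lost its call without the second WT input library. Without that library fewer windows were called both in this list and over the whole table.

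Outside WT OGAP over input, 0 of the 58 tested genes of the 3 lists passed in edgeR or in DESeq2. Few windows of the whole table passed in edgeR either, at 0.736% for KD OGAP over input and 0.00584% for the interaction. Between the states, 0.035% of all windows passed in the pull-down and 0% in input. A count of 0 in 58 is therefore near the share in the whole table. Unadjusted p was under 0.05 for 8 of the 58 genes in KD OGAP over input (12.6% of all windows). It was so for 5 in KD against WT in OGAP (10.6%), 1 in input (4.41%) and 1 in the interaction (8.14%). The 5 in OGAP, named after their values were seen, were ALDH9A1 (-1.19 ± 0.34, edgeR adjusted p = 0.196), GLO1 (-0.99 ± 0.38, adjusted p = 0.339), LAP3 (-0.77 ± 0.35), GPX4 (-0.67 ± 0.33) and GSTA5 (1.13 ± 0.50). The 1 in input was GSTM1 (-1.03 ± 0.49), and the 1 in the interaction was ALDH9A1 (-1.68 ± 0.48, edgeR adjusted p = 0.324). ALDH9A1 and GLO1 had been called higher in WT OGAP over input, which uses the same WT OGAP libraries. Their lower values here are therefore not independent of those calls.

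The windows whose CPM moved most like that of GSTA4 over the 8 libraries were sought among named windows with a mean count of at least the median, 32.5 reads. By Pearson's r on log CPM, given as a description over libraries that differ in depth and fall into pull-down and input, these were AEBP2 (0.975), DELE1 (0.973), GADD45GIP1 (0.972), DBF4B (0.972) and SSC4D (0.969), each on a different chromosome. Only DBF4B, which encodes a regulator of the replication kinase CDC7, had log2 differences as large as those of GSTA4, at 2.76 in WT and 2.36 in KD. Its reads were 179 and 221 against 63 and 58 in WT, and 151 and 270 against 59 and 56 after KD, with the second KD pull-down library again the higher. The other 4 lay between 0.92 and 1.12 in WT and between 0.57 and 1.10 in KD.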

How the data were processed

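OGAP and input DNA of RPE1 cells was analysed in 4 groups of 2 libraries. The authors deposited raw counts, whole reads in each 2001 bp window around a gene start. Per the submitters' processing notes, the tools were featureCounts, bedtools, MACS2 and BWA (0.7.17-r1188), on build hg38, with no order or settings given. Promoter reads totalled 368593 to 771138 per library, and the median window held 17 to 38. Tables of coverage profiles over all genes were not used here.

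Windows took the name of a RefSeq gene (GRCh38.p14) starting within 500 bp on the same strand, where exactly 1 protein-coding symbol fitted. The test was the quasi-likelihood test of edgeR 4.0.16 (R 4.3.3) on the counts, with TMM scaling, filterByExpr and 4 group means over 8 libraries. Benjamini-Hochberg adjustment ran over 17130 windows, and the threshold was 0.05. The SE is approximate, being the size of the log2 change divided by the root of F. The spread of a window rests mostly on that of all windows (98.4 prior and 4 residual degrees of freedom). Replicates differed by more than sampling noise (chi-square per degree of freedom 1.904 to 2.144). Alternatives were DESeq2 1.42.0, its size factors, no count filter, a replicate block, only the groups compared, and leaving out each library.

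The members and the 3 gene lists were chosen with earlier results of these data known. The genes named were all 9 members, list genes past the threshold (at most 5 per direction) with GCLC, GPX4 and NFE2L2, up to 3 named windows on each side of GSTA4, and the 5 windows most like it.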

Additional observations from a re-analysis of the deposited data

How the results depend on the processing

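Scaling by DESeq2 size factors, the DESeq2 test, no count filter, the replicate block and fits on only the groups compared changed neither the number of members past the threshold nor the direction of any member in the comparisons of KD with WT or the interaction (which has no fit on fewer groups). In OGAP over input that number is a description only, since GSTA4, the member past the threshold, was chosen on these contrasts. Leaving out 1 library at a time, GSTA4 was at 1.84 to 2.44 in WT OGAP over input. In KD OGAP over input it was at 1.35 to 2.39, lowest without the second KD OGAP library.

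Differences between replicates 1 and 2 correlated between groups at -0.04 to 0.024. The median window held 17 to 38 reads, so counting noise lowers such correlations, and they cannot show whether the replicate numbers pair the libraries. With the replicate block GSTA4 was at 2.13 (WT OGAP over input), 1.93 (KD OGAP over input), 0.02 (KD against WT in OGAP), 0.22 (input) and -0.20 (interaction).

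When a library was left out, directions turned for these values, of which none was past the threshold. In KD against WT in OGAP the ranges were -0.16 to 0.73 for GSTA2, -0.57 to 0.48 for GSTA4, -0.16 to 0.87 for GSTO1, -0.31 to 0.57 for GSTM3 and -0.57 to 0.56 for MGST1. In input they were -0.18 to 1.13 for GSTA3, -0.11 to 0.57 for GSTA4 and -0.021 to 0.60 for MGST1. In the interaction they were -0.71 to 0.17 for GSTA2, -0.49 to 1.48 for GSTA3, -0.83 to 0.22 for GSTA4, -0.61 to 0.45 for GSTO1 and -0.83 to 0.30 for MGST1. In WT OGAP over input they were -0.09 to 0.79 for GSTA2, -0.45 to 0.60 for GSTO1 and -0.14 to 0.22 for GPX4. In KD OGAP over input they were -0.18 to 0.05 for GSTA1, -0.15 to 0.30 for GSTA2, -0.26 to 0.16 for GSTP1, -0.27 to 0.30 for GSTO1, -0.09 to 0.33 for GSTK1, -0.31 to 0.55 for GSTM3 and -0.13 to 0.99 for MGST1.

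Over all windows the calls in WT OGAP over input were 2346, against 884 with DESeq2 and 890 to 2442 leaving out a library. In KD they were 126, against 64 with DESeq2, 9 without the second KD OGAP library, 8 without the first KD input library and 21 without the second. KD against WT in OGAP gave 6, against 0 with DESeq2, 12 with no count filter, 11 with only the groups compared, and 0 and 11 without the first or the second KD OGAP library. The interaction gave 1, against 3 with DESeq2 size factors, 3 with no count filter, 0 with DESeq2 and 0 to 6 leaving out a library. At this depth the 95% interval of the GSTA4 change between KD and WT in OGAP ran from -0.52 to 0.58 on the log2 scale.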
